A study of Homo sapiens with 30 samples.

Results

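Collagen chain genes, each encoding 1 alpha chain of a collagen, were examined in Ewing sarcoma cell lines treated with a BET bromodomain inhibitor. The members were the protein-coding genes whose symbol has the form COL, a type number, the letter A and a chain number, and 44 of the 33538 genes in the count table met this rule. By structure they comprised 11 fibrillar chains, 9 network-forming chains, 10 FACIT chains (fibril-associated collagens with interrupted triple helices), 5 collagen VI chains and 9 chains of other types. The filter on low counts kept 39 of the 44 members for testing and removed 5: COL4A3, COL9A1, COL19A1, COL22A1 and COL17A1, whose highest total over 30 libraries was 90 counts and whose highest level was 1.08 CPM (counts-per-million of the scaled library total).

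A673, CHLA10 and TC32 are established Ewing sarcoma lines, and the labels give each the genotype EWS::FLI1, the fusion that defines most of these tumours. Cells received 5 nM BMS-986158, a BET inhibitor abbreviated BETi, or the vehicle DMSO. In all 3 lines treatment lasted 72 hours (3 days), and CHLA10 and A673 also received the drug without a break for 20 days, which yields what the submitters call persister cells. There were 10 groups of 3 libraries, all labelled batch 1. CHLA10 was grown in IMDM with more serum and an insulin, transferrin and selenium supplement, and the other lines in RPMI1640, so that line and medium cannot be told apart for CHLA10. How long the 20-day vehicle cells received DMSO is not given in the labels, and nothing in them says that the 3 libraries of a group came from separate cultures, so the p-values measure the spread between libraries, which may be technical. These are bulk samples, in which fewer cells of a kind and less RNA per cell cannot be told apart.

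Collagens are made of alpha chains that wind into a triple helix in the endoplasmic reticulum, after hydroxylation of prolines and lysines, and are then exported and trimmed. Fibrillar chains of types I, II, III, V and XI build the banded fibrils of connective tissue, type IV builds the sheet of basement membranes, FACIT chains sit on fibril surfaces, and collagen VI forms beaded filaments around cells. BET proteins bind acetylated histones and help transcription of many genes, EWS::FLI1 targets among them, and collagen-binding integrins on the cell surface signal through focal adhesion kinase, which the series title names.

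Library totals lay between 16.1 and 48.9 M counts. The distance of a library was the SD, over all tested genes, of its log2 CPM minus the mean of the other libraries of its group. This distance was largest for replicate 3 of treated A673 at 20 days, of vehicle A673 at 3 days, and of treated and vehicle CHLA10 at 20 days, at 0.738, 0.684, 0.642 and 0.573. The other 26 libraries lay between 0.367 and 0.569, and values without these 4 libraries, singly or together, stand beside the results below. The 4 were picked for their distance, so leaving them out together narrows the spread that all groups share. This lowers p-values even in groups that lose no library: in TC32 the standard error of the COL4A1 change went from 0.48 to 0.21. Calls gained this way are therefore weak grounds. The 8 Ewing sarcoma identity genes (CD99, NKX2-2, NR0B1 and others) were all detected in every group, though NKX2-2 averaged under 1 CPM in treated CHLA10 at both days. The summed level of the 8 genes was 2113 to 7221 CPM. That sum was lower in treated than in vehicle libraries without overlap at 3 days in CHLA10 (4238 to 4498 against 5735 to 5838 CPM), A673 (2611 to 2664 against 3365 to 3423 CPM) and TC32 (5329 to 5450 against 6996 to 7221 CPM) and at 20 days in A673 (2113 to 2260.3 against 3327 to 3502 CPM), and overlapped in 20-day CHLA10. The sum of 8 fibroblast markers was higher under the drug in 20-day A673 (273 to 443 against 203 to 214 CPM), lower in TC32 (381 to 446 against 671 to 757 CPM) and overlapped in the other comparisons. Of these markers DCN and LUM had 0 counts in treated A673 at 20 days, where LUM was at 0 also in vehicle, and FAP and DCN had 0 counts in treated TC32. Endothelial markers summed to at most 2.18 CPM in CHLA10 and TC32 and to 33.9 to 71.7 CPM in A673, and haematopoietic markers to 3.86 to 20.8 CPM overall. The part of these other lists in the collagen results was not tested.

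The lines differed in which collagens they made before any drug. Per kilobase of transcript, the most abundant chains in 3-day vehicle CHLA10 were COL5A1, COL5A2 and COL3A1 at 48.4, 42.0 and 38.1 CPM per kb. In A673 they were COL5A3, COL1A1 and COL5A2 at 65.6, 62.0 and 46.0 CPM per kb. In TC32 they were COL6A2, COL16A1 and COL6A1 at 74.5, 43.2 and 34.7 CPM per kb, so a collagen VI chain and a FACIT chain led in place of the fibrillar ones. All 44 members together took 0.183 to 0.187% of the scaled library total in 3-day vehicle CHLA10, 0.261 to 0.306% in A673 and 0.111 to 0.124% in TC32.

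**Figure D1:**
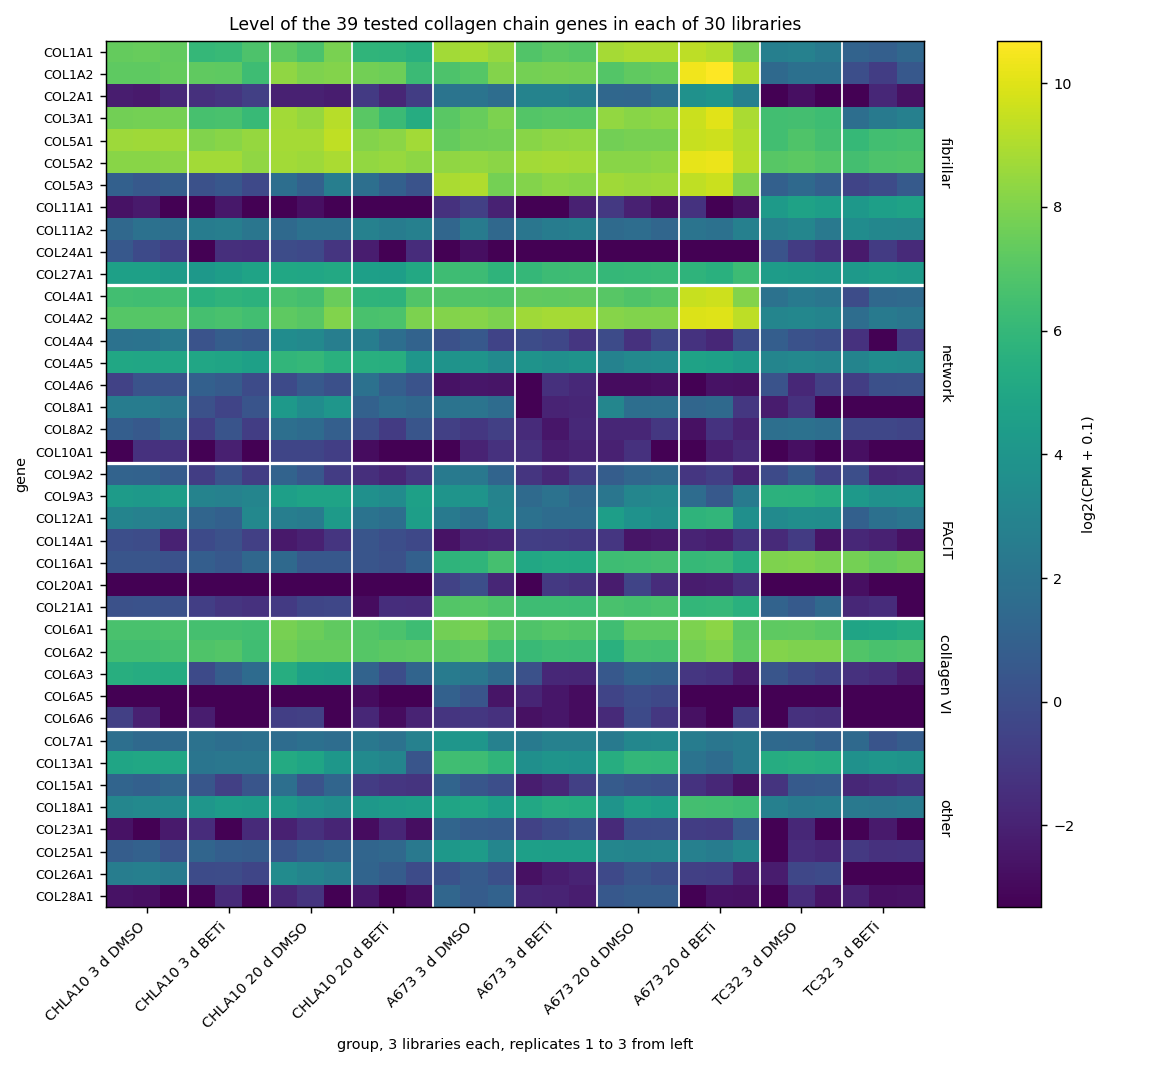
Level of each of the 39 tested collagen chain genes in each of the 30 libraries, as log2 of CPM plus 0.1, with genes on the vertical axis by structural class and libraries on the horizontal axis, 3 per group. COL1A1, COL1A2, COL2A1, COL3A1, COL5A1, COL5A2, COL5A3, COL4A1 and COL4A2 reach their brightest shades in treated A673 at 20 days. The fibrillar genes COL11A2, COL24A1 and COL27A1 are brightest in other groups, and COL11A1 is bright in TC32 only.

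Between vehicle groups of different lines, most members differed, as did most genes. Of the 39 members, 19 were higher and 9 lower in A673 than in CHLA10 at 3 days, beside 31.5 and 29.7% of all genes tested. COL5A3, a minor fibrillar chain, differed by 7.95 ± 0.51 (SE, adjusted p = 9.12e-12) on the log2 scale and COL21A1, a FACIT chain, by 6.88 ± 0.22 (adjusted p = 1.98e-19). COL6A3, the long chain of collagen VI, was lower in A673, with a log2 difference of -3.27 ± 0.40 (adjusted p = 1.03e-07). Against CHLA10, TC32 had 8 members higher and 15 lower, beside 31.0 and 30.1% of all genes. There COL11A1 and COL16A1 were higher by 8.65 ± 0.68 and 7.76 ± 0.29 (adjusted p = 4.40e-11 and 7.03e-17), and COL1A2, COL1A1, COL4A1 and COL4A2 were lower, with log2 differences of -5.57, -4.71, -4.27 and -3.98 (adjusted p = 3.17e-09, 3.25e-11, 4.01e-09 and 7.66e-11). Against A673, TC32 had 8 members higher and 24 lower, beside 32.3 and 34.3% of all genes.

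The vehicle groups of one line also differed between days in CHLA10. Of the 39 members, 7 were higher at 20 than at 3 days, beside 8.05% of all genes, and the other 32 did not pass, where 7.06% of all genes were lower. The 7 were COL3A1, COL5A2, COL4A5, COL8A1, COL6A1, COL6A2 and COL18A1, with rises of 0.55 to 1.49 on the log2 scale. That count fell to 3 without vehicle replicate 1 or 2 at 3 days, to 4 without replicate 3 at 3 days and to 1 without replicate 1 at 20 days. In A673, 0 members passed edgeR's quasi-likelihood test between vehicle days, beside 3.02% of all genes higher and 3.08% lower, while 2 were higher and 9 lower at an unadjusted p under 0.05 and DESeq2 called 3 lower. Without vehicle replicate 3 at 3 days, 8 members passed, and without vehicle replicate 2 at 20 days 1 did. Each treated group was therefore compared with the vehicle of its own line and day.

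Under treatment most collagen calls were decreases at 3 days in all 3 lines and at 20 days in CHLA10, and in A673 at 20 days about as many members rose as fell. At 3 days, 2 members rose and 12 fell in CHLA10, beside 14.0 and 15.7% of all genes tested, and the members' median log2 change was -0.47 against -0.01 for all genes. In A673 at 3 days, 4 rose and 16 fell, beside 15.3 and 18.4% of all genes, with a median of -0.75 (-0.73 with groups at 0 counts set at their bound) against -0.02. In TC32, 0 rose and 15 fell, beside 22.3 and 22.8% of all genes, with a median of -1.09 against -0.01; 0 members were higher in TC32 also at an unadjusted p under 0.05 in edgeR and by DESeq2.

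At 20 days the 2 lines parted. In CHLA10, 3 members rose and 16 fell, beside 16.5 and 17.2% of all genes, with a median of -0.81 (-0.73 at the bounds) against -0.02. In A673, 12 rose and 11 fell, beside 19.7 and 19.9% of all genes, with a median of -0.15 against 0 for all genes. Of the 12 that rose in A673, 6 were fibrillar, 3 network-forming, 2 collagen VI and 1 of another type, while all 4 FACIT chains that changed fell. The number that rose in CHLA10 at 3 days was 1 without any of treated replicates 1 and 2 or vehicle replicates 1, 2 and 3, and in A673 at 3 days it was 1 without treated replicate 2 or vehicle replicate 1 or 3 and 2 without treated replicate 1 or 3. In CHLA10 at 20 days, 5 rose when treated replicate 2 was left out.

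**Figure D2:**
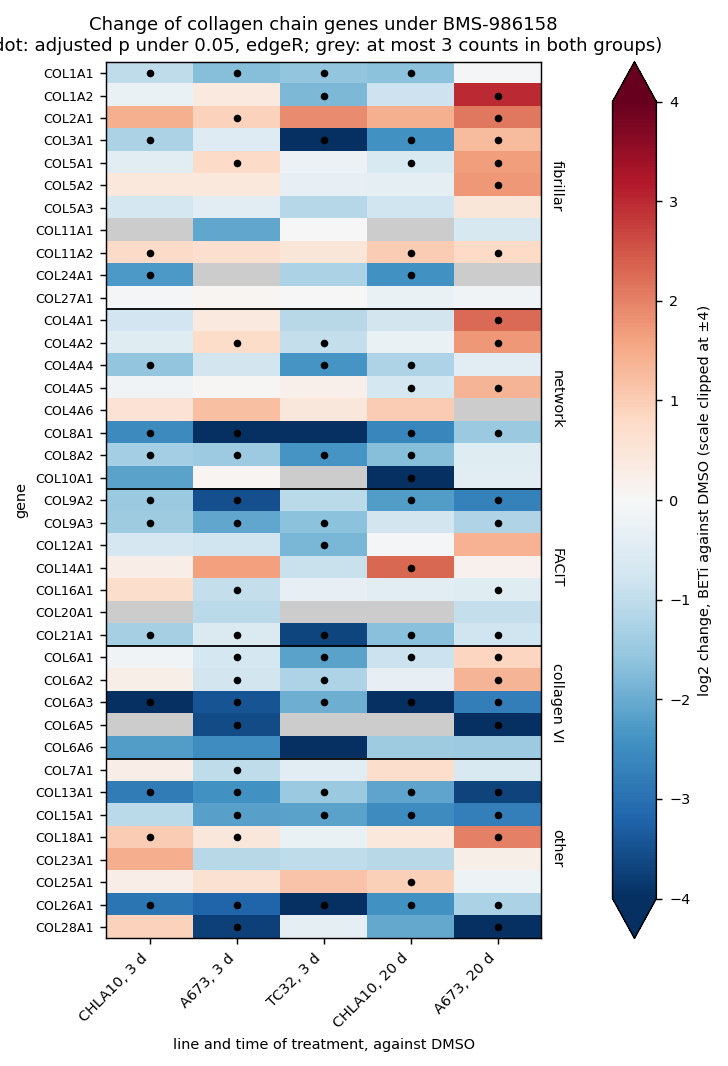
Log2 change of each tested collagen chain gene, treated against vehicle, in the 5 comparisons of line and time, with colour clipped at 4 in either direction, black dots for adjusted p under 0.05 by edgeR, and grey for at most 3 counts in both groups. Rows for COL21A1, COL6A3, COL13A1 and COL26A1 carry a dot in all 5 columns, all blue, while every dot on a fibrillar or type IV gene in the column of A673 at 20 days is red.

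Across the 5 comparisons, 32 of the 39 tested members passed the test at least once, beside 78.0% of all genes. Of these, 18 only fell, 7 only rose, and 7 fell in some comparison and rose in another: COL1A2, COL3A1, COL5A1, COL4A2, COL4A5, COL6A1 and COL6A2, beside 10.1% of all genes. COL1A1, COL8A2, COL9A3, COL21A1, COL6A3, COL13A1 and COL26A1 fell in all 3 lines at 3 days, 7 of 39 beside 5.12% of all genes, and 0 rose in all 3, beside 4.77%. COL21A1, COL6A3, COL13A1 and COL26A1 fell in all 5 comparisons, 4 of 39 beside 3.10% of all genes. COL5A3, COL11A1, COL27A1, COL4A6, COL20A1, COL6A6 and COL23A1 passed in none by edgeR with all libraries fitted, and some of them passed under alternatives given below.

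The stretches just upstream of the annotated starts of the 4 genes that fell in all 5 comparisons are shown because these members moved together in every line. They come from RefSeq on GRCh38.p14, read 5′ to 3′ on the strand of the gene, and each ends before the first exon that GENCODE 29 annotates there. Capitals mark the TATA box letters. COL6A3 lies at chr2:237414376-237414414 (minus strand), COL13A1 at chr10:69801656-69801866 (plus), COL21A1 at chr6:56394129-56394378 (minus, the most upstream of its 3 starts) and COL26A1 at chr7:101362625-101362819 (plus).
COL6A3: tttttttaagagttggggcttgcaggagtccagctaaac
COL13A1: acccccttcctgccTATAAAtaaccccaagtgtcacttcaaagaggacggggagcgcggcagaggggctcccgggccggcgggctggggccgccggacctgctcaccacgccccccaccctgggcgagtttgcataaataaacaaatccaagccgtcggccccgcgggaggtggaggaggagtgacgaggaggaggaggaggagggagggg
COL21A1: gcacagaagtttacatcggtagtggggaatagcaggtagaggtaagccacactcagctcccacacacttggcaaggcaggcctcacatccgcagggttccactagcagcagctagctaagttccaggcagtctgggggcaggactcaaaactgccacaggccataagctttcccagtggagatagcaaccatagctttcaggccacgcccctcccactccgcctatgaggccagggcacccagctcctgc
COL26A1: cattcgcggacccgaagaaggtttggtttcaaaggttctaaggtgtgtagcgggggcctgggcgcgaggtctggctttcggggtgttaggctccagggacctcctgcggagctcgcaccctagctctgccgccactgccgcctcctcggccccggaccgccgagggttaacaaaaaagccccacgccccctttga

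Motifs were searched by their letters on both strands, allowing overlaps: TATAAA as the TATA box, the letters CCAAT of the box of that name, GGGCGG as the GC box bound by SP1, and GGAAGGAA as a short form of the repeat that EWS::FLI1 binds. COL13A1 held TATAAA 1 time, and the other 3 stretches printed held none of these letters, which says only that the letters are not in these windows. RefSeq windows of 250 bases before to 50 after the start were found for 32 of the 44 members, 44 windows in all. TATAAA was in 8 of the 44 windows (18.2%) against 11.5% of all 35116 windows of that length, CCAAT in 31.8 against 34.6%, GGGCGG in 54.5 against 45%, and GGAAGGAA in 0 against 3.67%. A match is a description of the letters and not of binding.

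COL6A3 encodes the long alpha chain that joins the short COL6A1 and COL6A2 chains in the collagen VI monomer, and it lies at chr2:237324003-237414375. In 3-day CHLA10 its level was 0.795, 1.65 and 2.86 CPM in treated replicates 1, 2 and 3 against 43.8, 41.2 and 38.6 CPM in vehicle (all triplets below keep this order). At 20 days it was 2.14, 0.887 and 2.20 CPM against 41.7, 25.1 and 23.3 CPM, a mean 17.3-fold lower. Every treated library was below every vehicle library, with a log2 change at 20 days of -4.11 ± 0.43 (adjusted p = 4.31e-08). In A673 it was 1.02, 0.199 and 0.182 CPM against 5.54, 4.62 and 2.79 CPM at 3 days, and 0.371, 0.318 and 0.107 CPM against 1.36, 2.20 and 1.94 CPM at 20 days. The groups did not overlap at either time, and the log2 changes were -3.46 ± 0.51 and -2.77 ± 0.61 (adjusted p = 9.84e-06 and 0.000661). In TC32, where even vehicle cells had only 1.17, 0.789 and 0.599 CPM, treated libraries had 0.296, 0.245 and 0.107 CPM, a change of -1.95 ± 0.70 (adjusted p = 0.0249). That call was lost without treated replicate 2 or 3 or vehicle replicate 1, with adjusted p of 0.0571, 0.0954 and 0.106. It was also lost without a filter (adjusted p = 0.0583).

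The short collagen VI chains took another course. COL6A1 and COL6A2 lie on the same strand of chromosome 21, at chr21:45981737-46005050 and chr21:46098097-46132849. In TC32, COL6A1 was at 28.6, 31.9 and 39.0 CPM against 147, 155 and 139.8 CPM, and COL6A2 at 116, 103 and 108 CPM against 267, 255 and 252 CPM. Both groups were apart, with log2 changes of -2.15 ± 0.24 and -1.24 ± 0.21 (adjusted p = 1.41e-07 and 5.10e-05). In A673 at 3 days, COL6A1 had 113, 125 and 119 CPM against 212, 225 and 143 CPM and COL6A2 had 70.9, 80.4 and 77.5 CPM against 142, 156 and 88.6 CPM. Vehicle replicate 3 was the lowest vehicle library for both but stayed above the treated ones, and the changes were -0.70 ± 0.22 and -0.75 ± 0.21 (adjusted p = 0.0186 and 0.00803). The COL6A1 call was lost without treated replicate 1 or 3 or vehicle replicate 1 or 2 (adjusted p of 0.0528 to 0.0910) and the COL6A2 call without vehicle replicate 2 (-0.59, adjusted p = 0.0601).

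At 20 days the short chains of A673 were higher under the drug. COL6A2 was at 209, 253 and 148 CPM in treated against 47.2, 97.3 and 95.5 CPM in vehicle libraries, with no overlap and a change of 1.35 ± 0.22 (adjusted p = 2.16e-05). COL6A1 was at 242, 308 and 139.7 CPM against 85.4, 150.0 and 146 CPM, where treated replicate 3 lay among the vehicle libraries, and it rose by 0.86 ± 0.22 (adjusted p = 0.00364, or 0.0756 with only these groups in the model). Without treated replicate 3 the rises were 1.12 for COL6A1 and 1.53 for COL6A2. In CHLA10, COL6A1 fell at 20 days, from 222, 187 and 157 CPM to 123, 105 and 80.7 CPM (-0.87 ± 0.23, adjusted p = 0.00401), and COL6A2 did not pass at either day (adjusted p = 0.239 at 20 days). COL6A5, an alternative long chain, had more than 1 CPM only in vehicle A673 at 3 days, with 1.94, 1.21 and 0.0754 CPM against 0.170, 0.0797 and 0.0405 CPM in treated cells. Those groups overlapped, and the call of -3.58 ± 0.96 (adjusted p = 0.00891) was lost without treated replicate 3 (adjusted p = 0.0596). At 20 days COL6A5 had 0 counts in the 3 treated A673 libraries against 0.645, 0.881 and 0.727 CPM in vehicle, at least 13.3-fold lower (adjusted p = 0.00283). COL6A5 met the filter only through vehicle A673 libraries, so its falls are not independent of the filter. COL6A6, the remaining long chain tested, was at most 0.771 CPM and passed in no comparison by edgeR with all libraries. In TC32, with 0 counts in treated libraries, it was near the threshold (-5.10, adjusted p = 0.0527). There it was called lower by DESeq2 (-4.35, adjusted p = 0.0256), and by edgeR without a filter (adjusted p = 0.0457) or without vehicle replicate 1 (adjusted p = 0.0297).

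COL13A1 encodes a transmembrane collagen found at sites of cell adhesion, and it spans chr10:69801867-69964275. It was at 4.21, 4.59 and 4.64 CPM against 30.2, 32.4 and 30.8 CPM in 3-day CHLA10, and at 13.6, 16.3 and 14.6 CPM against 41.5, 43.8 and 40.5 CPM in TC32. In A673 it was at 12.3, 14.9 and 14.1 CPM against 83.7, 81.0 and 58.2 CPM at 3 days and at 3.97, 3.05 and 5.46 CPM against 41.8, 61.8 and 59.1 CPM at 20 days. None of these groups overlapped, and the log2 changes were -2.80 ± 0.41, -1.5 ± 0.37, -2.43 ± 0.38 and -3.69 ± 0.42 (adjusted p = 1.68e-05, 0.00233, 3.75e-05 and 3.67e-07). In 20-day CHLA10 it was at 10.3, 8.13 and 1.18 CPM against 37.4, 30.5 and 17.1 CPM, with replicate 3 the lowest of both groups, and the change was -2.11 ± 0.39 (adjusted p = 0.000206), or -2.33 (adjusted p = 8.92e-06) with the replicate number as a block. With only the groups of this comparison in the model, the adjusted p was 0.0696.

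COL26A1, a little-studied collagen of another type, was low in all lines. In CHLA10 it was at 0.834, 0.847 and 0.650 CPM against 5.98, 6.57 and 5.13 CPM at 3 days and at 2.18, 1.59 and 0.815 CPM against 10.7, 7.84 and 6.26 CPM at 20 days, changes of -2.91 ± 0.42 and -2.43 ± 0.39 (adjusted p = 8.24e-06 and 2.95e-05). In TC32 the 3 treated libraries had 0 counts against 0.112, 0.691 and 0.799 CPM, at least 10.6-fold lower (adjusted p = 6.09e-05). In A673 it fell by 3.19 ± 0.54 at 3 days (adjusted p = 5.68e-05), and by 1.27 ± 0.50 at 20 days (adjusted p = 0.0433), from 0.752, 1.21 and 0.920 CPM to 0.529, 0.508 and 0.161 CPM. The 20-day A673 call is the weakest of these and was lost without treated replicate 2 or 3 or vehicle replicate 2 or 3, with adjusted p of 0.0557 to 0.187 and a change of -0.88 without treated replicate 3.

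COL21A1, a FACIT chain of vessel walls, was at 81.1, 80.2 and 78.9 CPM in treated against 121, 125 and 110.0 CPM in vehicle A673 at 3 days, and at 61.3, 63.5 and 47.2 CPM against 101, 93.0 and 103 CPM at 20 days. These were the only groups above 3 CPM, and the groups did not overlap, with changes of -0.57 ± 0.15 and -0.79 ± 0.16 (adjusted p = 0.00518 and 0.000185). In TC32 it was at 0.198, 0.245 and 0 CPM against 2.12, 1.48 and 2.53 CPM, a mean 13.8-fold lower (-3.68 ± 0.39, adjusted p = 2.80e-08). In CHLA10 both groups lay near or under 1 CPM at both days, with changes of -1.33 ± 0.34 and -1.66 ± 0.44 (adjusted p = 0.00417 and 0.00410). The 20-day CHLA10 call was lost with only the 2 groups in the model (adjusted p = 0.0764).

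Among fibrillar chains, the type I pair COL1A1 and COL1A2 assembles as heterotrimers in bone, skin and tendon. In A673 and in CHLA10 the calls of its chains did not coincide at either day. In 3-day A673, COL1A1 (chr17:50183289-50201632) was at 119, 140.2 and 127 CPM in treated against 431, 455 and 367 CPM in vehicle libraries, and it fell by 1.70 ± 0.28 (adjusted p = 6e-05). In the same libraries COL1A2 (chr7:94394561-94431232) was at 219.9, 227 and 221 CPM against 110.0, 125 and 273 CPM, where the treated libraries lay within the vehicle range (0.39, adjusted p = 0.457). Vehicle replicate 3 alone made that overlap, and without it the change was 0.92 (adjusted p = 0.0804), or 0.96 without the 4 most distant libraries (adjusted p = 0.00142). At 20 days in A673, COL1A1 was at 628, 534 and 229 CPM against 445, 502 and 501 CPM and did not pass (-0.06 ± 0.27, adjusted p = 0.896). Its treated libraries lay both above and below the vehicle ones, and without treated replicate 3 its change was 0.27. COL1A2 in these libraries was at 1323, 1649.9 and 509 CPM against 124, 155 and 166 CPM, a mean 7.82-fold higher with no overlap. The log2 rise was 2.97 ± 0.41 (adjusted p = 5.60e-06), and 3.33 without treated replicate 3, the lowest of the treated libraries.

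In CHLA10 and TC32 the type I chains were lower or did not pass. In 3-day CHLA10, COL1A1 was lower (-1.03 ± 0.27, adjusted p = 0.00613) without overlap, and COL1A2 did not pass (-0.27, adjusted p = 0.653). COL1A1 in 20-day CHLA10 was at 57.7, 54.2 and 45.3 CPM against 149, 104 and 238 CPM, and it fell by 1.64 ± 0.28 (adjusted p = 8.03e-05) with all treated libraries below the vehicle ones. COL1A2 there was at 212, 194 and 74.5 CPM against 328, 249 and 277 CPM, also without overlap, but the change of -0.83 did not pass (adjusted p = 0.104), and it was -0.49 without treated replicate 3. In TC32 both chains were far lower than in the other lines, with COL1A1 at 2.08, 1.82 and 2.51 CPM against 6.53, 7.05 and 5.33 CPM and COL1A2 at 0.939, 0.491 and 1.33 CPM against 2.62, 3.50 and 3.53 CPM. They fell by 1.57 ± 0.39 and 1.81 ± 0.68 (adjusted p = 0.00199 and 0.0351). The COL1A2 call was lost on leaving out treated replicate 1 or 2 or vehicle replicate 2 or 3, with adjusted p of 0.0716 to 0.127.

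COL3A1, the single chain of type III collagen, and COL5A2, a chain of the type V collagen that sets fibril diameter, are neighbours on chromosome 2 on opposite strands, at chr2:188974320-189012746 and chr2:189031896-189225312. In TC32, COL3A1 was at 3.21, 5.40 and 6.77 CPM against 87.7, 91.1 and 80.8 CPM, a mean 16.9-fold lower with no overlap. COL5A2 in the same libraries was at 88.9, 111 and 115 CPM against 130.3, 142 and 121 CPM and did not pass (-0.32, adjusted p = 0.114). In CHLA10 COL3A1 fell from 207, 213 and 214 CPM to 96.2, 100.3 and 68.8 CPM at 3 days and from 422, 360.1 and 576 CPM to 136, 74.4 and 41.4 CPM at 20 days, by 1.26 ± 0.32 and 2.43 ± 0.33 (adjusted p = 0.00472 and 6.26e-06). COL5A2 in CHLA10 passed at neither day (0.41 and -0.35, adjusted p = 0.0599 and 0.0972).

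In A673 at 20 days these fibrillar chains were higher together. COL3A1 was at 749, 1053 and 479.7 CPM against 341, 297 and 312 CPM, COL5A2 at 1148, 1239 and 579 CPM against 294, 296 and 312 CPM, and COL5A1 at 729, 799 and 537 CPM against 207, 223 and 224 CPM. All treated libraries lay above all vehicle libraries, and treated replicate 3 was the lowest of the treated ones for each gene. The rises were 1.26 ± 0.32, 1.72 ± 0.17 and 1.66 ± 0.18 (adjusted p = 0.00290, 6.53e-09 and 4.56e-08), and 1.51, 1.99 and 1.81 without treated replicate 3. At 3 days in A673 COL5A1, the other main type V chain, was already higher by 0.77 ± 0.18 (adjusted p = 0.00137), while COL3A1 and COL5A2 did not pass (-0.53 and 0.41, adjusted p = 0.206 and 0.0533). Without vehicle replicate 3 the COL3A1 change was -0.26, and COL5A2 did not pass (0.37, adjusted p = 0.129). COL5A2 passed without the 4 most distant libraries together (0.41, adjusted p = 0.00124), which narrows the shared spread. In 20-day CHLA10 COL5A1 fell by 0.60 ± 0.17 (adjusted p = 0.00914), a call lost without treated replicate 1 (-0.46, adjusted p = 0.0668) or vehicle replicate 3 (-0.39, adjusted p = 0.0962).

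**Figure D3:**
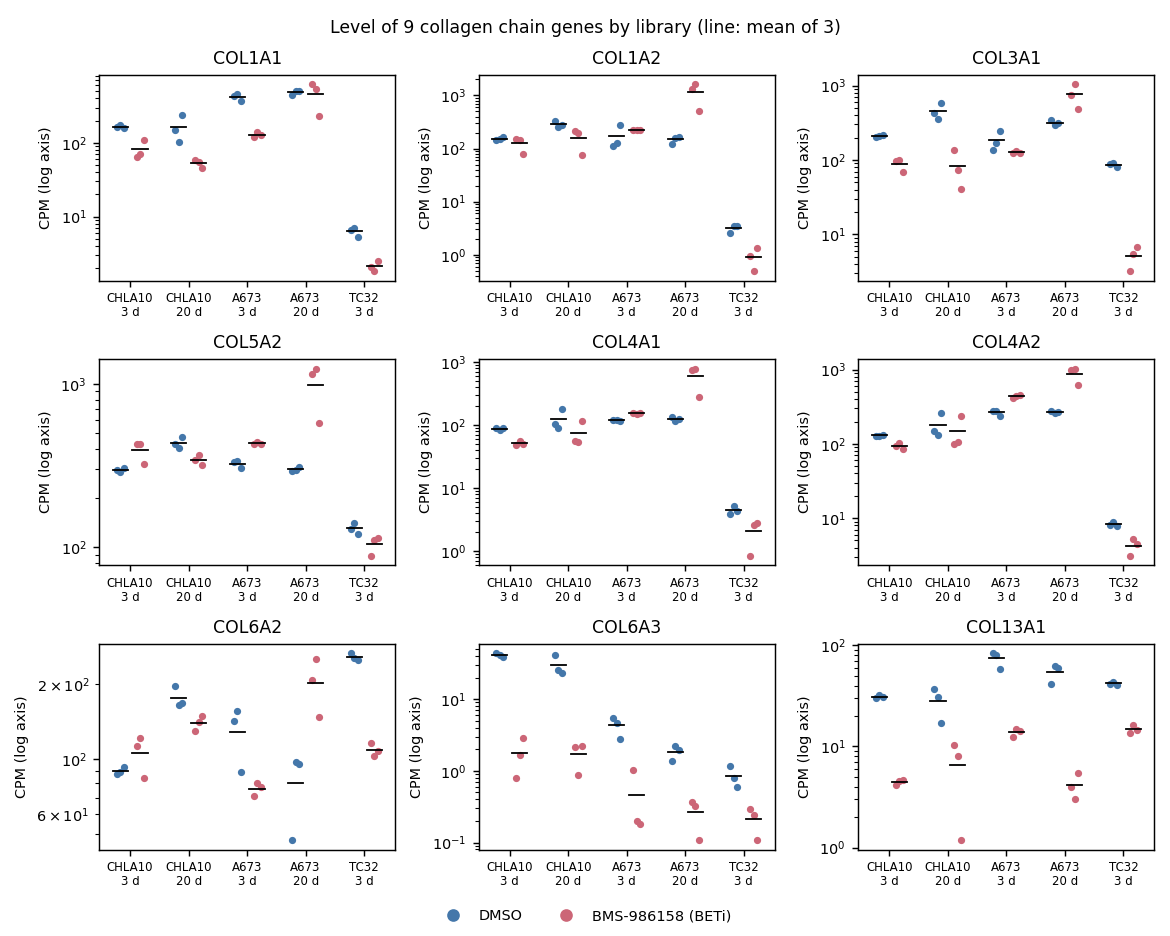
Level in CPM, on a log axis, of 9 collagen chain genes in each library, by line and day, with blue points for vehicle, red points for treated libraries and a line at the mean of 3. COL1A2, COL3A1, COL5A2, COL4A1 and COL4A2 rise in A673 at 20 days, where 1 treated library lies below the other pair, and COL6A3 and COL13A1 lie lower under the drug in every line and day.

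Of the other fibrillar chains, COL2A1, the cartilage collagen, was expressed above 1 CPM in A673 only. It was at 7.62, 7.53 and 6.28 CPM against 4.12, 4.12 and 3.13 CPM at 3 days and at 13.3, 15.5 and 6.75 CPM against 2.51, 2.38 and 3.44 CPM at 20 days. Treated libraries were higher without overlap, by 0.91 ± 0.33 and 2.10 ± 0.33 (adjusted p = 0.0309 and 1.26e-05), though the 3-day call was lost without treated replicate 1 or 2 or any vehicle replicate (adjusted p of 0.0531 to 0.0877). COL11A2, a chain of type XI collagen that forms heterotypic fibrils with type II, rose at both days in CHLA10 (0.76 ± 0.29 and 1.00 ± 0.28, adjusted p = 0.0462 and 0.00720) and at 20 days in A673 (0.81 ± 0.29, adjusted p = 0.0258). Only the 20-day CHLA10 call held under all alternatives run: the 3-day call was lost without treated replicate 1 or 2 or any vehicle replicate (adjusted p of 0.0574 to 0.177), and the A673 call without treated replicate 3 (0.49, adjusted p = 0.205) or vehicle replicate 1 or 3 (adjusted p = 0.0558 and 0.0933). COL24A1, a fibrillar chain under 1.4 CPM everywhere that met the filter only through vehicle libraries, fell in CHLA10 by 2.31 ± 0.85 and 2.41 ± 0.89 (adjusted p = 0.0442 and 0.0405). Neither call held with the replicate block (adjusted p = 0.105 and 0.0934) or by DESeq2 (adjusted p = 0.0630 and 0.0557). The 3-day call was lost without any 1 of the 6 libraries (adjusted p of 0.0505 to 0.176), and the 20-day call without replicate 1 or 2 of either group (adjusted p of 0.0965 to 0.153).

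By edgeR with all libraries fitted, COL5A3, COL11A1 and COL27A1 passed in no treatment comparison although each was expressed. COL5A3 in A673 was at 270.2, 316 and 294 CPM against 481, 515 and 219 CPM at 3 days, with the vehicle libraries spread widely, and at 659, 754 and 251 CPM against 414, 383 and 399 CPM at 20 days, with the treated ones spread widely. Without the 4 most distant libraries it passed in A673 at both days, with changes of -0.72 and 0.82 (adjusted p = 2.52e-05 and 3.07e-06), and without treated replicate 3 alone at 20 days (0.83, adjusted p = 0.0362). In TC32 COL5A3 was lower by DESeq2 (-1.13, adjusted p = 0.0444) and not by edgeR (adjusted p = 0.167). COL11A1 in TC32 was at 17.8, 24.3 and 27.0 CPM against 19.8, 27.2 and 23.4 CPM. In 3-day A673, at 0.541 CPM or less, COL11A1 was near the threshold (-2.09, adjusted p = 0.0518). It was lower there by DESeq2 (adjusted p = 0.0393) and by edgeR with RLE size factors (adjusted p = 0.0478). COL27A1, a fibrillar chain of cartilage, lay between 17.8 and 81.2 CPM over all libraries, and without the 4 most distant libraries it passed at 20 days in CHLA10 and A673 (-0.43 and -0.38, adjusted p = 0.0194 and 0.0140). Leaving out those 4 narrows the shared spread, so the COL5A3 and COL27A1 calls without them are weak grounds.

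Among network-forming chains, COL4A1 and COL4A2 form the common basement membrane heterotrimer and are read from opposite strands, head to head, on chromosome 13, at chr13:110148963-110307233 and chr13:110305812-110513209. Their RefSeq starts lie 126 bases apart, and their GENCODE models overlap at the 5′ ends. The sources used here do not say whether counting used strand, so reads from the overlap cannot be assigned with certainty. In A673 at 20 days, COL4A1 was at 738, 784 and 275 CPM in treated against 134, 115 and 126 CPM in vehicle libraries, and COL4A2 at 987, 1036 and 618 CPM against 278, 260.0 and 266 CPM. Both groups were apart, with rises of 2.26 ± 0.33 and 1.72 ± 0.26 (adjusted p = 1.15e-05 and 1.29e-05), and of 2.60 and 1.92 without treated replicate 3. At 3 days in A673 COL4A2 had 412, 446 and 451 CPM against 276, 279.6 and 241 CPM and rose by 0.72 ± 0.25 (adjusted p = 0.0324), a call lost without any 1 of the 6 libraries (adjusted p of 0.0519 to 0.0957).

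In the other lines the type IV chains were lower or did not pass. In TC32, COL4A2 fell from 8.09, 8.93 and 7.86 CPM to 3.11, 5.25 and 4.43 CPM (-0.96 ± 0.32, adjusted p = 0.0180), a call lost without treated replicate 1 (adjusted p = 0.0902) or vehicle replicate 2 (adjusted p = 0.0534). COL4A1 in 20-day CHLA10 was at 55.0, 52.7 and 116 CPM against 102, 90.8 and 177 CPM, where replicate 3 was the highest of both groups. Its change of -0.73 ± 0.32 did not pass (adjusted p = 0.0892), and with the replicate number as a block it was -0.76 and passed (adjusted p = 0.0227), as it did at -1.2 without treated replicate 3 (adjusted p = 0.00874). COL4A2 in the same libraries did not pass (-0.28, adjusted p = 0.441), but passed at -0.80 without treated replicate 3 (adjusted p = 0.00493) and was at 0.08 without vehicle replicate 3. COL4A5, a chain of the kidney basement membrane, fell in 20-day CHLA10 (-0.69 ± 0.23, adjusted p = 0.0229) and rose in 20-day A673, from 7.34, 9.39 and 10.9 CPM to 26.8, 24.5 and 19.7 CPM (1.37 ± 0.25, adjusted p = 7.05e-05). The CHLA10 call was lost without treated replicate 3 (-0.35, adjusted p = 0.138) or vehicle replicate 1 or 2 (adjusted p = 0.0716 and 0.0868). COL4A4 fell in CHLA10 at both days and in TC32 (-1.59, -1.25 and -2.35, adjusted p = 0.0106, 0.0269 and 0.00319), and COL4A6 stayed under 4 CPM and passed in no comparison. The 3-day COL4A4 call in CHLA10 was lost without treated replicate 1 (adjusted p = 0.0562), and the 20-day call without treated replicate 2 or 3 or vehicle replicate 1 or 2 (adjusted p of 0.0715 to 0.127) or with only these groups in the model (adjusted p = 0.0524).

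COL8A1 and COL8A2, the short chains of the hexagonal lattices under endothelium and cornea, each fell in 4 of the 5 comparisons. COL8A1 was at 0, 0.159 and 0.182 CPM against 3.95, 4.08 and 3.05 CPM in 3-day A673, a mean 32.4-fold lower (-4.71 ± 0.63, adjusted p = 3.03e-06). In CHLA10 it was at 0.993, 0.624 and 1.13 CPM against 5.80, 5.83 and 4.63 CPM at 3 days and at 1.94, 2.96 and 2.49 CPM against 18.0, 11.2 and 16.4 CPM at 20 days. None of these groups overlapped, and the CHLA10 changes were -2.56 ± 0.50 and -2.62 ± 0.46 (adjusted p = 0.000333 and 8.32e-05). In 20-day A673 it fell by 1.5 ± 0.47 (adjusted p = 0.0133), a call lost without treated replicate 3 (-1.01, adjusted p = 0.0581) or vehicle replicate 1 (-0.90, adjusted p = 0.157). In TC32 COL8A1 had 0 counts in the treated libraries, at least 2.69-fold lower than vehicle, and did not pass (adjusted p = 0.0508).

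COL8A2 fell in TC32 from 3.40, 3.70 and 3.26 CPM to 0.692, 0.687 and 0.640 CPM (-2.35 ± 0.42, adjusted p = 5.57e-05). It also fell in CHLA10 at 3 and 20 days and in A673 at 3 days (-1.36, -1.69 and -1.45, adjusted p = 0.0145, 0.00189 and 0.0345). The 3-day CHLA10 call was lost without treated replicate 1 or 3 or vehicle replicate 3 (adjusted p of 0.0723 to 0.0869), and the A673 call without treated replicate 2 or 3 or vehicle replicate 1 or 3 (adjusted p of 0.0625 to 0.142). COL10A1, the chain of hypertrophic cartilage, had 1 count in treated against 37 counts in vehicle CHLA10 at 20 days, a ratio of 47.6 with a 95% counting interval of 8.03 to 1930.5 (adjusted p = 0.00211). In every other group COL10A1 was at most 0.305 CPM. It met the filter only through the vehicle group of this comparison, so its fall there is not independent of the filter.

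Among FACIT chains, which coat fibrils or lie near them, 1 of the 7 tested rose in any comparison. COL9A3, a chain of the type IX collagen that decorates cartilage fibrils, was at 7.55, 6.95 and 8.28 CPM against 20.8, 18.0 and 22.5 CPM in 3-day CHLA10. It was at 2.73, 3.75 and 2.59 CPM against 15.4, 15.4 and 7.62 CPM in 3-day A673 and at 18.7, 13.6 and 13.8 CPM against 51.9, 48.7 and 41.9 CPM in TC32. The groups were apart in each line, with changes of -1.43 ± 0.33, -2.08 ± 0.35 and -1.63 ± 0.32 (adjusted p = 0.00174, 6.12e-05 and 0.000212). In 20-day CHLA10 it did not pass (-0.72, adjusted p = 0.0837) but passed with the replicate block (-0.81, adjusted p = 0.0198) and without treated replicate 3 (-1.17, adjusted p = 0.00778). In 20-day A673 it fell by 1.19 ± 0.36 (adjusted p = 0.0101), and not without treated replicate 2 (-0.85, adjusted p = 0.0709) or vehicle replicate 3 (adjusted p = 0.0555).

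COL9A2, its partner chain, was at 0.341, 0.199 and 0.466 CPM against 5.30, 4.87 and 2.19 CPM in 3-day A673 and at 0.371, 0.508 and 0.161 CPM against 1.65, 2.35 and 2.81 CPM at 20 days. The groups did not overlap, and the falls were 3.53 ± 0.56 and 2.71 ± 0.59 (adjusted p = 1.96e-05 and 0.000513). COL9A2 fell also in CHLA10, by 1.47 at 3 days (adjusted p = 0.0371, lost without treated replicate 1 or 3 or vehicle replicate 1 or 2 with adjusted p of 0.0862 to 0.143) and by 2.24 ± 0.59 at 20 days (adjusted p = 0.00409, or 0.0510 without vehicle replicate 1). COL9A1, the third chain of type IX, was below the filter, with counts almost only in A673.

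COL16A1, a FACIT chain found in cartilage and skin, was at 33.7, 37.7 and 36.1 CPM against 56.0, 57.4 and 93.2 CPM in 3-day A673 and fell by 0.94 ± 0.20 (adjusted p = 0.000681). Without the 4 most distant libraries, which include vehicle replicate 3 with its 93.2 CPM, the change was -0.62 and passed. In TC32, where it was the second most abundant chain per kilobase, it was at 220.4, 170.1 and 203 CPM against 250.2, 260.2 and 233 CPM, and the change did not pass. At 20 days in A673 its fall of 0.50 ± 0.20 (adjusted p = 0.0484) was lost without treated replicate 1 or 3 or any vehicle replicate, with -0.29 and adjusted p = 0.240 without treated replicate 3. COL14A1, a FACIT chain that regulates fibril growth, was the one that rose: in 20-day CHLA10 it was at 1.17, 0.924 and 0.734 CPM against 0.0938, 0.142 and 0.341 CPM (2.30 ± 0.66, adjusted p = 0.00755, and 1.97 with adjusted p = 0.0547 without vehicle replicate 1). COL12A1, a FACIT chain found in tendon, fell in TC32 (-1.83, adjusted p = 0.0455), a call lost without any 1 of the 6 libraries (adjusted p of 0.0665 to 0.143). In 20-day A673 it was at 55.6, 58.7 and 12.7 CPM against 23.0, 13.9 and 11.4 CPM without passing (1.39, adjusted p = 0.103), and it passed without treated replicate 3 (1.82, adjusted p = 0.0348). COL20A1 stayed under 1 CPM and passed in none.

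Among the remaining types, COL18A1, a basement membrane proteoglycan whose end fragment is endostatin, was the clearest increase. In 20-day A673 it was at 90.8, 88.8 and 80.3 CPM against 15.3, 26.4 and 23.4 CPM, and in 3-day CHLA10 at 16.5, 21.1 and 19.7 CPM against 8.50, 9.43 and 10.2 CPM. Both pairs of groups were apart, with rises of 2.00 ± 0.18 and 1.03 ± 0.18 (adjusted p = 1.07e-09 and 9.55e-05). In 3-day A673 it rose by 0.46 ± 0.17 (adjusted p = 0.0412), a call lost without treated replicate 2 or 3 or vehicle replicate 1 or 3 (adjusted p of 0.0740 to 0.167) and under DESeq2 (adjusted p = 0.0666). COL15A1, its structural relative in basement membranes, went the other way, with changes of -2.16 and -2.72 in A673 at 3 and 20 days, -2.14 in TC32 and -2.52 in 20-day CHLA10 (adjusted p = 0.00295, 0.00102, 0.00517 and 0.000594). It was at most 3.38 CPM in any library.

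COL28A1, a collagen of peripheral nerve, was above 1 CPM in vehicle A673 only, at 2.36, 1.62 and 2.00 CPM against 0.170, 0.159 and 0.121 CPM in treated cells at 3 days (-3.72 ± 0.73, adjusted p = 0.000275). At 20 days it had 2 counts over the 3 treated libraries against 114 in vehicle, a ratio of 40.1 with a 95% counting interval of 10.8 to 334.9 (adjusted p = 8.87e-05). COL28A1 met the filter only through vehicle A673 libraries. COL25A1, a transmembrane collagen, rose in 20-day CHLA10 by 0.95 ± 0.34 (adjusted p = 0.0341), and not without treated replicate 3 (0.52, adjusted p = 0.291) or vehicle replicate 1 or 2 (0.72 and 0.98, adjusted p = 0.174 and 0.0773). COL7A1, the anchoring fibril chain of skin, fell in 3-day A673 (-1.02 ± 0.29, adjusted p = 0.00696, or 0.0508 without vehicle replicate 2), and COL23A1, a transmembrane collagen, passed in none. With only the compared groups in the model COL23A1 was lower in 3-day A673 (-1.10, adjusted p = 0.0445).

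Within single libraries, the ratio of chains that assemble together gives the balance of their transcripts per kilobase, described here without a test. The ratio of COL1A1 to COL1A2 in 3-day A673 was 0.437, 0.497 and 0.461 in treated and 3.15, 2.93 and 1.08 in vehicle libraries, and at 20 days 0.382, 0.260 and 0.363 against 2.89, 2.60 and 2.42. Treated A673 libraries were below every vehicle library at both days, and the vehicle replicate 3 of day 3 was the nearest to them. In CHLA10 the ratio was 0.339, 0.378 and 1.10 against 0.895, 0.951 and 0.783 at 3 days, where treated replicate 3 lay above all vehicle libraries, and in TC32 it was 1.78, 2.98 and 1.51 against 2.00, 1.62 and 1.21 with overlap. The ratio of COL4A1 to COL4A2 was lower in every treated than in every vehicle library of CHLA10, at 0.487, 0.521 and 0.574 against 0.670, 0.629 and 0.651 at 3 days and 0.539, 0.482 and 0.475 against 0.671, 0.668 and 0.672 at 20 days, and of 3-day A673 (0.374, 0.328 and 0.335 against 0.427, 0.418 and 0.466). In 20-day A673 it was 0.734, 0.743 and 0.436 against 0.473, 0.436 and 0.465, with treated replicate 3 among the vehicle libraries, and in TC32 the groups overlapped.

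The ratio of COL3A1 to its neighbour COL5A2 in TC32 was 0.0461, 0.0620 and 0.0754 in treated and 0.860, 0.820 and 0.853 in vehicle libraries. In 3-day CHLA10 it was 0.286, 0.299 and 0.271 against 0.892, 0.942 and 0.891. In each of the 5 line and day pairs every treated library had the lower ratio, including 20-day A673 (0.833, 1.09 and 1.06 against 1.48, 1.28 and 1.28), where both genes were higher under the drug. The ratio of COL6A3 to COL6A2 was 0.00227, 0.00435 and 0.0110 against 0.161, 0.150 and 0.133 in 3-day CHLA10, and in 20-day A673 0.000572, 0.000404 and 0.000233 against 0.00929, 0.00728 and 0.00653. It was lower under the drug without overlap also in 20-day CHLA10 and 3-day A673. In TC32, where both genes fell, the groups overlapped, at 0.000821, 0.000766 and 0.000317 against 0.00141, 0.000999 and 0.000767.

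**Figure D4:**
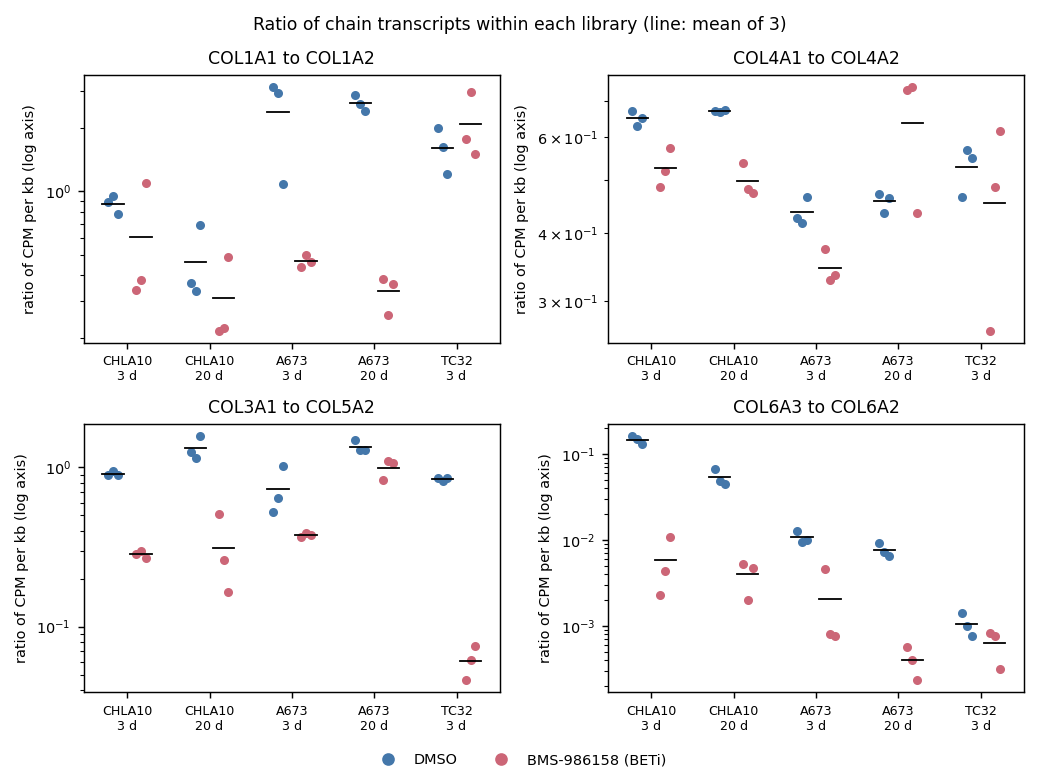
Ratio of CPM per kb of 4 chain pairs within each library, on a log axis, by line and day, with blue points for vehicle, red points for treated libraries and a line at the mean of 3. The COL3A1 to COL5A2 ratio is lower in every treated group, and the COL1A1 to COL1A2 ratio of A673 drops from above 1 in vehicle to below 0.5 in treated libraries.

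Summed over all 44 members, collagen transcripts took 0.781, 0.880 and 0.409% of the scaled library total in treated A673 at 20 days, against 0.274, 0.288 and 0.296% in vehicle. All treated libraries lay above vehicle, with replicate 3 nearest to it. In 20-day CHLA10 the share was 0.158, 0.154 and 0.166% against 0.273, 0.239 and 0.321%, and in TC32 0.0631, 0.0630 and 0.0687% against 0.118, 0.124 and 0.111%. Treated libraries were lower in these 2 comparisons without overlap, as in 3-day CHLA10 (0.146, 0.153 and 0.136% against 0.183, 0.185 and 0.187%). In 3-day A673 the groups overlapped, at 0.250, 0.271 and 0.266% against 0.288, 0.306 and 0.261%, where vehicle replicate 3 was the lowest vehicle library. With 3 libraries against 3 the smallest 2-sided p an exact permutation test can give is 0.1, so no test was made on these sums. By class, the fibrillar sum of 20-day A673 was 5307, 6095 and 2677 CPM against 1893, 1928 and 1989 CPM and the network sum 1754, 1848 and 914 CPM against 429, 389 and 408 CPM, while the FACIT sum was 188, 196 and 108 CPM against 211, 203 and 216 CPM.

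**Figure D5:**
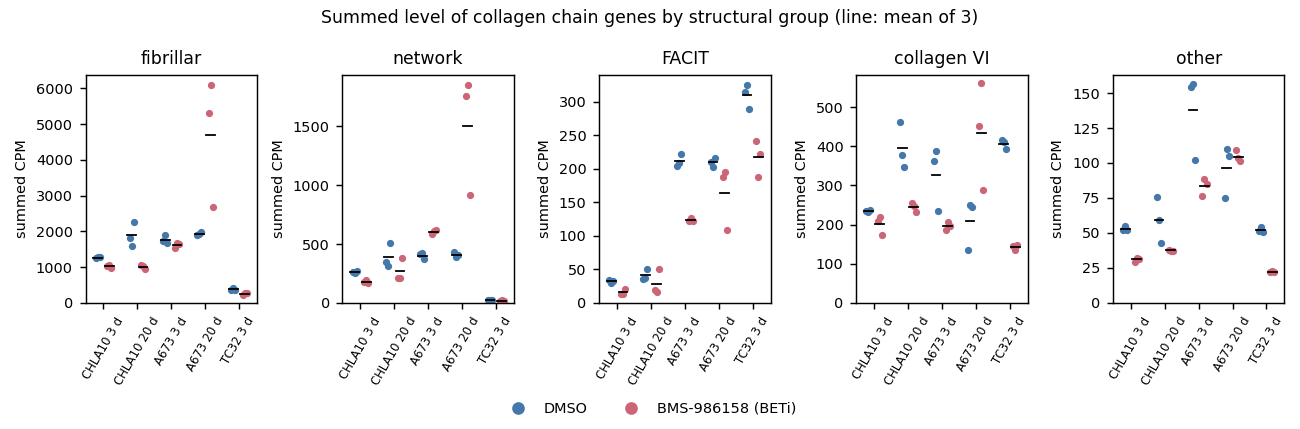
Summed CPM of the members of each structural class in each library, by line and day, with blue points for vehicle, red points for treated libraries and a line at the mean of 3. Fibrillar and network sums of treated A673 at 20 days stand above all other groups, and the FACIT sum of the same libraries lies below its vehicle.

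Whether the drug effect itself differed between times and lines was tested as a difference of log2 changes. Between 20 and 3 days in A673, 11 of 39 members had a higher effect at 20 days, beside 4.33% of all genes, and the other 28 did not pass, where 2.93% of all genes were lower. They included COL1A1 (1.64 ± 0.38, adjusted p = 0.0101), COL1A2 (2.57 ± 0.55, adjusted p = 0.00564), COL5A2 (1.31 ± 0.23, adjusted p = 0.000837), COL6A2 (2.10 ± 0.30, adjusted p = 0.000196) and COL18A1 (1.54 ± 0.24, adjusted p = 0.000309). Without treated replicate 2 at 20 days 7 passed, and without the 4 most distant libraries 17 did. In CHLA10 only COL5A2 passed, with a lower effect at 20 days (-0.76 ± 0.23, adjusted p = 0.0462), beside 2.97% of all genes lower and 3.35% higher. That call was lost without any 1 of 8 libraries: treated replicate 1 or 2 at 3 days, or any vehicle replicate at either day.

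At 20 days, where only 2 lines were treated, the effect differed between A673 and CHLA10 for 13 members. It was higher in A673 for 11, beside 11.4% of all genes, among them COL1A2 (3.80 ± 0.56, adjusted p = 4.22e-05), COL3A1 (3.69 ± 0.46, adjusted p = 5.50e-06), COL4A1 (2.98 ± 0.46, adjusted p = 6.97e-05) and COL5A1 (2.26 ± 0.25, adjusted p = 3.49e-07), and lower for 2, beside 10.5% of all genes, namely COL7A1 and COL13A1 (-1.32 and -1.58, adjusted p = 0.0242 and 0.0443). At 3 days, 5 members differed between these lines, 2 higher and 3 lower in A673 beside 4.85 and 5.65% of all genes, with COL5A1 and COL4A2 higher in A673 (1.2 and 1.18, adjusted p = 0.00252 and 0.0367) and COL16A1, COL6A2 and COL7A1 lower (-1.63, -1.0 and -1.30, adjusted p = 0.00964, 0.0350 and 0.0474). This count was 3 without treated CHLA10 replicate 1, and 2 without treated CHLA10 replicate 2, any vehicle CHLA10 replicate, any treated A673 replicate or vehicle A673 replicate 1 or 2.

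TC32 differed from CHLA10 in 6 members, all with the lower effect in TC32, beside 6.47% of all genes lower and 7.34% higher. The difference was -2.82 ± 0.49 for COL3A1, -2.36 ± 0.58 for COL21A1 and -2.0 ± 0.32 for COL6A1 (adjusted p = 0.000757, 0.00734 and 0.000355), and COL5A2, COL6A2 and COL18A1 made up the rest. TC32 differed from A673 in 9 members, 1 higher and 8 lower beside 12.4 and 11.8% of all genes, with a higher effect for COL9A2 (2.44, adjusted p = 0.0284) and lower effects for 8, led by COL3A1 (-3.55 ± 0.49, adjusted p = 3.60e-05) and COL21A1 (-3.11 ± 0.44, adjusted p = 1.95e-05). Without treated TC32 replicate 1, 5 passed. These comparisons share treated and vehicle groups with one another.

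The machinery that modifies, exports and binds collagens was counted in 4 lists, beside all genes tested, of which 14.0, 15.3 and 22.3% rose and 15.7, 18.4 and 22.8% fell at 3 days in CHLA10, A673 and TC32, 16.5% rose and 17.2% fell in 20-day CHLA10, and 19.7% rose and 19.9% fell in 20-day A673. Of 19 genes for chain modification and folding, 3, 3 and 3 rose and 7, 7 and 7 fell at 3 days in CHLA10, A673 and TC32, 5 rose and 4 fell in 20-day CHLA10, and 11 rose and 5 fell in 20-day A673, where the list's median change was 0.63 against 0 for all genes. A count of 3 of 19 is near or under the share of all genes that rose. COLGALT2, which adds galactose to hydroxylysine, fell in all 5 comparisons, from means of 55.6 ± 0.954 to 13.6 ± 1.11 CPM (SD, n = 3) in 3-day CHLA10 and of 21.1 ± 1.31 to 3.53 ± 0.529 CPM in 20-day A673. P3H4, which acts in the lysyl hydroxylation complex, also fell in all 5, with log2 changes of -0.92 to -1.87. P4HA2, a prolyl hydroxylase subunit, fell at 3 days in CHLA10 and A673 (-1.32 and -1.64) and rose at 20 days in A673 (1.06).

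Of 14 genes for procollagen export and cleavage, 4, 2 and 2 rose and 4, 5 and 3 fell at 3 days in the order above, 3 rose and 4 fell in 20-day CHLA10, and 6 rose and 3 fell in 20-day A673. In TC32 both counts are below the shares of all genes, 22.3 and 22.8%. CREB3L1, a transcription factor of the secretory pathway known to drive type I collagen genes, fell in all 5 comparisons, with log2 changes of -1.55, -2.40, -1.75, -2.65 and -1.15 (adjusted p = 0.00497, 4.81e-06, 0.0295, 1.88e-05 and 0.00629) in the order 3-day CHLA10, A673 and TC32 and 20-day CHLA10 and A673. TLL1, a procollagen C-proteinase, fell in all but TC32 (-3.25, -1.22, -4.30 and -2.91, and -0.69 with adjusted p = 0.257 in TC32), and its relative TLL2 rose in the same 4 groups (2.00, 2.19, 1.26 and 2.44).

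Of 8 collagen receptors, 5 rose and 1 fell in 20-day A673, against 2 and 2 in 20-day CHLA10 and 2 and 1, 2 and 2, and 1 and 2 at 3 days in CHLA10, A673 and TC32. With 8 genes, a count of 1 or 2 is close to the shares of all genes, and 5 of 8 stands beside 19.7%. The integrin chains ITGA1 and ITGA11 were higher in 20-day A673, from 8.09 ± 2.61 to 40.7 ± 15.7 CPM and from 0.481 ± 0.156 to 2.04 ± 0.668 CPM (SD, n = 3), with rises of 2.32 ± 0.26 and 2.05 ± 0.42 (adjusted p = 4.70e-08 and 0.000272). In TC32 both fell (-1.10 and -2.48, adjusted p = 0.000678 and 7.59e-05). ITGA2 rose in 3-day A673 and at 20 days in both lines (1.17, 2.31 and 1.39).

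Of 6 proteoglycans that bind fibrils, 5 were tested. At 3 days 0, 1 and 0 rose and 2, 2 and 4 fell in CHLA10, A673 and TC32, 0 rose and 4 fell in 20-day CHLA10, and 1 rose and 1 fell in 20-day A673, numbers too small to set against the shares of all genes. Decorin (DCN), which coats fibrils, fell in all 5 comparisons, with 7.39 ± 0.283 CPM in vehicle against 0.452 ± 0.0223 CPM in treated 3-day CHLA10 (SD, n = 3) and 0 counts in the treated TC32 and A673 groups. In vehicle TC32 and in vehicle A673 at both days the mean of DCN was already under 1 CPM. The naming rule also picked PRELP and LUM from this list, with mean absolute log2 changes of 2.81 and 1.4 over the 5 comparisons. PRELP averaged at least 1 CPM only in vehicle CHLA10 and vehicle TC32, and LUM only in CHLA10 and vehicle TC32. Biglycan (BGN), its close relative and chosen after its values were seen, rose in 3-day A673 from 65.9 ± 13.1 to 100.3 ± 4.86 CPM (0.61 ± 0.20, adjusted p = 0.0196) and in 20-day A673 from 74.5 ± 7.44 to 696.6 ± 274.5 CPM (3.23 ± 0.21, adjusted p = 1.93e-11) and fell in TC32 and 20-day CHLA10 (-1.5 and -1.0, adjusted p = 5.72e-06 and 0.0181).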

How the data were processed

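Poly(A) RNA libraries of 30 samples were sequenced as read pairs, per the labels' protocols. The authors deposited raw read counts for Ensembl genes as whole numbers; per the submitters' processing notes FastQC, Trim Galore, STAR and DESeq2 were used with GRCh38, while versions, the counting tool and its strand setting are not given in the sources used. Totals of 16.1 to 48.9 M counts per library set the precision, and no 2 libraries agreed within sampling noise (lowest chi-square per gene 2.19). Counting intervals and floors (3 counts over a group) cover counting error only.

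Gene IDs were paired with symbols for 33113 of 33538 genes, and coordinates and transcript lengths come from GENCODE 29. Genes were filtered with filterByExpr (16713 kept), scaled with TMM and fitted with edgeR 4.0.16 (quasi-likelihood, robust, 1 mean per group over 30 libraries) in R 4.3.3. COL10A1, COL6A5, COL24A1 and COL28A1 met the filter only through vehicle libraries. Their falls are therefore not independent of the filter, and the counts of members that fell include them. Benjamini-Hochberg adjustment ran over all 16713 genes in each of 16 comparisons, and a gene was called at an adjusted p under 0.05. All adjusted p-values in the text are from this test unless another tool is named. CPM use TMM-scaled totals, per kb uses the longest principal transcript, and standard errors are those of the log2 change. On simulated counts for the 20-day A673 comparison (15979 genes fitted), 92, 84, 76 and 100% of 50 genes each were called for set log2 changes of -2, -1, 1 and 2. These genes had a mean above 1 CPM, and far fewer genes changed than in the data. The shares therefore do not apply to members under 1 CPM.

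Members and gene lists were chosen with earlier results of these data known. The text names the 2 most abundant members of each class, the 3 highest and 3 lowest called in each treatment comparison, those called the same way in 3 lines or in opposite directions, fixed chain partners and up to 3 called genes per list; other members are named, after their values were seen, to account for the family. The replicate numbers were taken to pair libraries only in CHLA10 at 20 days, where the deviations of same-numbered treated and vehicle libraries correlated at 0.199, 0.150 and 0.361; there the blocked value is given where it changes a call. This choice was made from the correlations and is not clear-cut, since replicate 1 of 20-day A673 was at 0.160. Values in the text without mention of the block are unblocked. Alternatives were RLE size factors, no filter, DESeq2 1.42.0, only the groups compared, a replicate block, leaving out each library, and, chosen after seeing the data, leaving out the 4 most distant libraries.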

Additional observations from a re-analysis of the deposited data

Results flagged for a closer look

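The drug effect on 45 member and comparison pairs differed between 2 times or lines by edgeR's test of the difference of log2 changes, and each difference is given as the first named group minus the second. Between 20 and 3 days, COL5A2 in CHLA10 differed by -0.76. In A673 the 20-day effect was higher for COL1A1 by 1.64, COL1A2 by 2.57, COL3A1 by 1.79, COL5A1 by 0.89, COL5A2 by 1.31, COL4A1 by 1.88, COL4A5 by 1.31, COL8A1 by 3.21, COL6A1 by 1.55, COL6A2 by 2.10 and COL18A1 by 1.54. COL8A1 stands out among these because it fell at both days, less at 20 than at 3 days, while the others were higher or not called at 20 days.

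Between A673 and CHLA10 at 3 days the differences were 1.2 for COL5A1, 1.18 for COL4A2, -1.63 for COL16A1, -1.0 for COL6A2 and -1.30 for COL7A1. At 20 days they were 1.58 for COL1A1, 3.80 for COL1A2, 3.69 for COL3A1, 2.26 for COL5A1, 2.07 for COL5A2, 2.98 for COL4A1, 1.99 for COL4A2, 2.06 for COL4A5, 1.73 for COL6A1, 1.68 for COL6A2, -1.32 for COL7A1, -1.58 for COL13A1 and 1.57 for COL18A1.

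Between TC32 and CHLA10 at 3 days they were -2.82 for COL3A1, -0.73 for COL5A2, -2.36 for COL21A1, -2.0 for COL6A1, -1.48 for COL6A2 and -1.31 for COL18A1. Between TC32 and A673 they were -2.21 for COL1A2, -3.55 for COL3A1, -1.02 for COL5A1, -0.73 for COL5A2, -1.68 for COL4A2, 2.44 for COL9A2, -3.11 for COL21A1, -1.45 for COL6A1 and -0.74 for COL18A1. COL3A1, COL5A2, COL21A1, COL6A1 and COL18A1 had the lower effect in TC32 against both other lines.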

How the results depend on the processing

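Of 135 named effects, 80 were called, 54 of those calls held under every alternative run, and 26 were lost under at least 1. Without a filter 6 named calls were lost. They were COL11A2 in 3-day CHLA10 (adjusted p = 0.0561), COL4A2 and COL8A2 in 3-day A673 (0.0663 and 0.0671), COL1A2 and COL6A3 in TC32 (0.0683 and 0.0583) and COL16A1 in 20-day A673 (0.08). RLE size factors ended the calls of COL11A2 in 3-day CHLA10 (0.0531) and COL18A1 in 3-day A673 (0.0677). With the replicate block (no test of vehicle groups across lines or days can be had there, since block and group coincide) 17 members fell in 20-day CHLA10 against 16: the calls of COL4A1 and COL9A3 were gained and that of COL24A1 was lost. The numbers were not taken to pair libraries in the other groups (correlations of -0.162 to 0.160), though the highest of these is above the 0.150 of replicate 2 in 20-day CHLA10. In those groups the block ended the calls of COL8A2 in 3-day A673, COL1A2 in TC32 and COL24A1 in 3-day CHLA10 and made calls of 6 other named effects. With only the compared groups fitted, 12 named calls were lost and 13 gained; the lost ones not given so far are COL18A1 in 3-day A673 (adjusted p = 0.0510), COL5A1, COL4A5 and COL25A1 in 20-day CHLA10 (0.0812, 0.211 and 0.12) and COL11A2, COL8A1, COL9A3, COL16A1 and COL26A1 in 20-day A673 (0.0724, 0.113, 0.0894, 0.0725 and 0.0818). Without the 4 most distant libraries 17 named effects became calls and 4 calls were lost, that of COL8A2 in 3-day A673 (0.0805), COL18A1 in 3-day A673 (0.0667) and COL11A2 and COL26A1 in 20-day A673 (0.182 and 0.133). The gains include effects in TC32 and 3-day CHLA10, which lost no library. Members that rose in 3-day CHLA10 numbered 2, and 1 with RLE size factors, 1 without a filter and 5 without the 4 most distant libraries; those that fell in 20-day A673 numbered 11, and 7 with only the compared groups fitted. Members whose effect differed between days in CHLA10 numbered 1, and 0 without a filter, 0 with the block, 3 with only the compared groups and 4 without the 4 libraries. Without the 4 libraries the counts also moved from 11 to 17 (A673, between days), 5 to 15 (A673 against CHLA10, 3 days), 6 to 10 (TC32 against CHLA10), 7 to 12 (vehicle CHLA10, between days) and 0 to 13 (vehicle A673, between days); with only the compared groups the second, the third and the fourth of these were 11, 10 and 11, and by DESeq2 the last was 3. Leaving out 1 library gave 1 to 3 higher and 8 to 11 lower in 3-day CHLA10, 1 to 3 and 13 to 16 in 3-day A673, 0 and 12 to 14 in TC32, 2 to 5 and 12 to 18 in 20-day CHLA10 and 11 to 13 and 8 to 10 in 20-day A673. For differences of effects it gave 0 to 1 (CHLA10, days), 7 to 15 (A673, days), 2 to 5 (A673 against CHLA10, 3 days), 5 to 7 (TC32 against CHLA10), 5 to 9 (TC32 against A673) and 11 to 16 (A673 against CHLA10, 20 days), and for vehicle groups 1 to 6, 0 to 8, 24 to 28, 20 to 22 and 29 to 33 in the order CHLA10 days, A673 days, A673 against CHLA10, TC32 against CHLA10 and TC32 against A673. Leaving out 1 library made a call of an uncalled named effect 11 times. Effects not called with all libraries changed sign when 1 library was left out, over these ranges: COL14A1 -0.18 to 0.64 and COL28A1 -2.86 to 1.51 in 3-day CHLA10; COL4A5 -0.10 to 0.17 and COL10A1 -0.37 to 0.91 in 3-day A673; COL4A6 -0.01 to 1.23 and COL28A1 -1.03 to 1.31 in TC32; COL4A2 -0.80 (a call, as given above) to 0.08 in 20-day CHLA10; and COL1A1 -0.34 to 0.27, COL10A1 -1.3 to 0.48 and COL14A1 -0.32 to 1.23 in 20-day A673. Without the 4 libraries COL4A5 in 3-day A673 was at -0.06 and COL1A1 and COL14A1 in 20-day A673 at 0.26 and -0.33. The causes were not tested. Depth leaves wide counting intervals where a group has few counts, as for COL10A1 and COL28A1 above.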
